A study of Homo sapiens with 27 samples.

Results

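The genes described are the semaphorins, plexins, ephrins and Eph receptors of Panc1 cells, read in parental cells and in 2 clones that lack ARNT. They were taken by symbol (SEMA, PLXN, EFNA, EFNB, EPHA or EPHB followed by a number or letter). The choice by symbol uses no measured value, although the families were picked with earlier results of these data known. Described are 50 of the 21487 genes in the table: 20 semaphorins (7 of class 3, 6 of class 4, 2 of class 5, 4 of class 6 and 1 of class 7), 9 plexins, 5 ephrin-A and 3 ephrin-B ligands, 9 EphA and 4 EphB receptors. Panc1 is an established line of human pancreatic ductal adenocarcinoma, and ARNT is the subunit that the hypoxia-inducible factors (HIFs) need as a partner to bind DNA. The knockout was made by CRISPR-Cas9, and its 2 lines, ARNT KO Clone A and ARNT KO Clone B, are each 1 clone, so the loss of ARNT and other differences between a clone and the parental cells cannot be told apart. Each of the 3 genotypes was kept for 48 hours in normoxia (20% O2) in regular medium, in hypoxia (1% O2) in regular medium, or in hypoxia in TIFM, a medium modelled on pancreatic tumor interstitial fluid. TIFM was used only under hypoxia, and each of the 9 groups had 3 libraries of polyA RNA. The labels do not say whether replicates were separate cultures, so p-values measure the spread between these libraries, which may be technical.

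Semaphorins are ligands with a shared beta-propeller domain: those of class 3 are secreted, those of classes 4 to 6 span the membrane, and SEMA7A is held there by a lipid anchor. Plexins are their receptors and carry an intracellular domain that switches off small GTPases of the RAS family, and most class 3 ligands also need a neuropilin (NRP1 or NRP2) as a co-receptor. Ephrins and Ephs work between touching cells: ephrin-A ligands are lipid-anchored and mostly bind EphA receptor kinases, ephrin-B ligands span the membrane and mostly bind EphB kinases, and both partners signal into their own cell. These families steer growing axons and vessels, and in epithelia and carcinomas they take part in cell repulsion, boundary formation and migration.

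The libraries held 26057022 to 38341713 counts (median 31727174). Ductal and mesenchymal markers that Panc1 is known for were present in every library (KRT8, KRT18, KRT19, EPCAM and VIM), the insulin gene INS had 0 counts, and the leukocyte marker PTPRC did not exceed 0.839 CPM. The acinar markers PRSS1, CPA1 and CELA3A stayed at or under 0.195 CPM. Not every marker of other cell types was silent. The neural and glial markers MBP and SYP read 37.4 to 242 and 3.66 to 13.3 CPM. The fibroblast marker DCN reached 7.75 CPM and the leukocyte marker CD14 2.47 CPM. ARNT transcript lay between 44.6 and 77.4 CPM in all 27 libraries, clones included, so its level does not check the knockout. The 3 libraries of clone A in TIFM stood apart from each other: counts of replicates 1 and 3 differed more than those of any other pair of replicates, and EPHA2, for example, read 169.6, 236 and 508 CPM there. Values given for single libraries are CPM, counts scaled with TMM factors to a common library total, in the order of replicates 1, 2 and 3. A log2 change is the difference of fitted log2 levels and is followed by its standard error (SE). A gene is said to have risen or fallen only where edgeR's quasi-likelihood test gave an adjusted p (Benjamini-Hochberg, over the 13943 genes tested) under 0.05. In bulk RNA, fewer cells that express a gene and less RNA of it per cell cannot be told apart.

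Per kilobase of exon, the leading members in parental cells in normoxia were the secreted ligand SEMA3C, the receptor EPHA2 and the membrane ligand SEMA4B, at 68.5, 65.5 and 60.3 CPM per kb. EPHB4, the receptor of EFNB2, followed at 28.7, and then came the SEMA3E receptor PLXND1 at 21.99, SEMA3F at 17.2, PLXNB2 at 15.8 and PLXNA1 at 10.8. In the clones in normoxia EPHA2 led, at 56.7 CPM per kb in clone A and 43.6 in clone B. By CPM, 40 of the 50 members reached a mean of 1 in at least 1 group and 8 reached a mean of 100: SEMA3C, SEMA4B, PLXNA1, PLXNB2, PLXND1, EPHA2, EPHB2 and EPHB4. Per kilobase, the ephrins were led in parental normoxia by EFNB2 at 4.60 CPM per kb, and over all groups their highest mean was that of EFNB1 in parental cells in TIFM, at 18.5. Of the 50 members, 47 passed the filter on low counts. The 3 that did not were PLXNA4, which stayed at or under 0.394 CPM, EFNA4, which had 1 count in all libraries together, and SEMA4G, which had 0 counts, a limit of 0.00344 CPM if 3 counts over all libraries are allowed. Some of the exon bases of SEMA4G (27.4%), EFNA4 (14.96%), EFNA3 (44.7%), EFNB2 (26.2%) and PLXNB3 (20.4%) also belong to overlapping genes, so their counts may be split or shared, depending on counting settings not given in the sources used here.

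**Figure D1:**
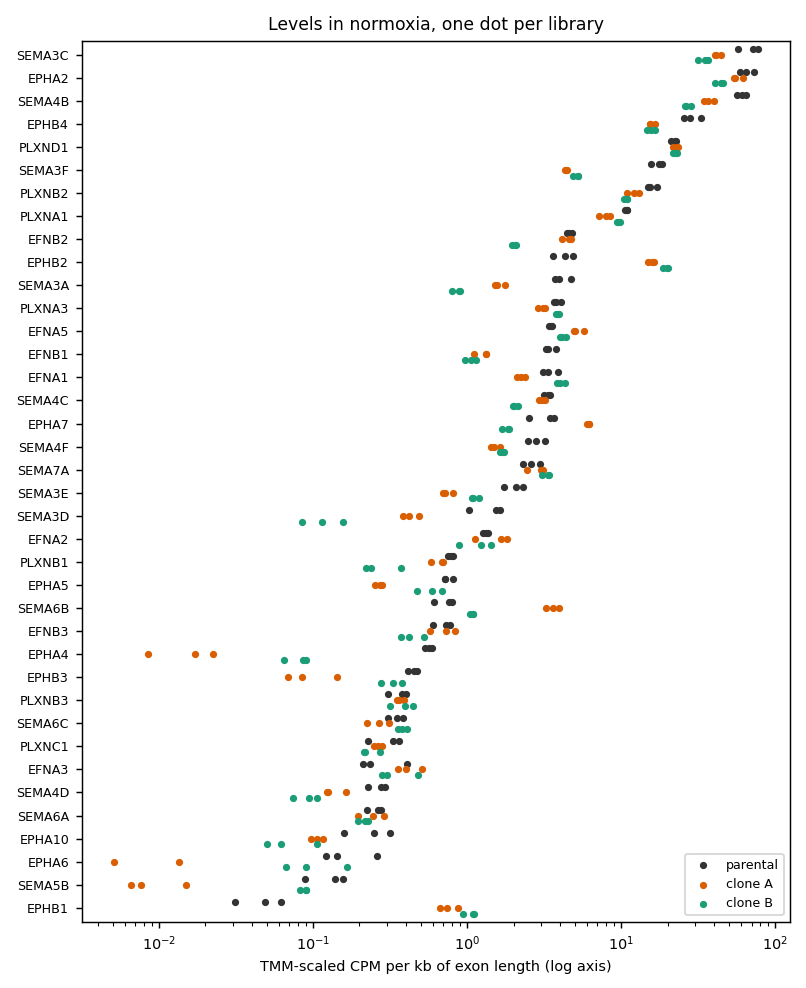
Level per kilobase of exon (CPM per kb, log axis) of 38 members in normoxia, with 1 point per library for parental cells, clone A and clone B. Members are drawn if their mean reached 0.1 CPM per kb in at least 1 genotype. SEMA3C, EPHA2 and SEMA4B lead in parental cells at 68.5, 65.5 and 60.3 CPM per kb, and libraries at 0 counts (EPHA6 in clone A, for example) are not drawn.

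The first question was what hypoxia did to these genes where ARNT was intact. In parental cells 12 of the 47 tested members rose and 6 fell. This is 38.3%, against 30.2% of all genes, 15.4% higher and 14.9% lower. The median log2 change was 0.21 over the members and −0.0022 over all genes. Of the 7 class 3 genes, which encode secreted semaphorins, 4 fell and none rose, while of the 5 tested class 4 genes 4 rose and none fell. Among the other members 1 of 4 tested ephrin-A, 2 of 3 ephrin-B, 1 of 9 EphA and 1 of 4 EphB genes rose, and of 8 tested plexins 1 rose and 1 fell.

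Among the secreted ligands, SEMA3E, which binds PLXND1 directly, read 17.3, 14.5 and 19.5 CPM in normoxia and 7.81, 8.47 and 8.80 in hypoxia. All 3 hypoxic libraries lay below all 3 normoxic ones, and the log2 change was −1.03 ± 0.23 (adjusted p = 0.00119). SEMA3A, the classical collapsing factor of growth cones, changed by −0.92 ± 0.21 (adjusted p = 0.0016), and SEMA3F, a ligand that works mainly through NRP2, by −0.90 ± 0.16 (adjusted p = 0.000105), each without overlap between groups. SEMA3D also fell (−0.74 ± 0.22, adjusted p = 0.0136). The call of SEMA3D was lost without parental normoxia replicate 1 or 3 or parental hypoxia replicate 2 (adjusted p up to 0.077). SEMA3C had a mean of 429 ± 64.4 CPM in normoxia and 581 ± 13.5 CPM in hypoxia (SD, n = 3), a log2 difference of 0.44 ± 0.17 (adjusted p = 0.0537) that missed the threshold (95% interval 0.079 to 0.79).

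The membrane-bound SEMA5B rose from 1.18, 0.759 and 1.33 to 4.95, 5.03 and 5.99 CPM. Its normoxic and hypoxic libraries did not overlap, and the log2 change was 2.29 ± 0.36 (adjusted p = 2.63e-05). SEMA6B, a ligand of plexins of the A type, moved the other way, from 3.35, 3.51 and 2.69 CPM to 0.653, 1.26 and 1.10 CPM. Its log2 change was −1.67 ± 0.25 (adjusted p = 1.26e-05), the most negative of the called changes in this comparison. SEMA4B, the most abundant class 4 gene, rose by 0.62 ± 0.16 (adjusted p = 0.00548). SEMA4F (0.43 ± 0.14, adjusted p = 0.0221) and SEMA4D, the ligand of PLXNB1 (0.67 ± 0.24, adjusted p = 0.0389), also rose. The call of SEMA4F was lost without parental normoxia replicate 1 or 3 or parental hypoxia replicate 1 or 3 (adjusted p up to 0.117). The call of SEMA4D was lost whichever library of the comparison was left out (adjusted p up to 0.144). SEMA4A rested on 1 count in normoxia and 26 in hypoxia, a ratio of 22.6 with a 95% counting interval of 3.72 to 928. SEMA6D, under 1 CPM throughout, rose by 1.79 ± 0.55 (adjusted p = 0.0158). The call of SEMA6D was lost without parental normoxia replicate 1 or parental hypoxia replicate 1 or 3 (adjusted p up to 0.0926).

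Of the ephrins, EFNA3 read 0.403, 0.450 and 0.772 CPM in the parental normoxic libraries and 3.26, 2.36 and 2.56 CPM in the hypoxic ones. The groups were well apart, with a log2 change of 2.33 ± 0.33 (adjusted p = 6.91e-06). EFNB1, the transmembrane ligand of EphB receptors, read 11.03, 12.5 and 10.7 CPM in normoxia and 23.5, 25.4 and 24.4 CPM in hypoxia, again without overlap, and its log2 change was 1.09 ± 0.13 (adjusted p = 6.11e-07). EFNB3 also rose (0.82 ± 0.27, adjusted p = 0.0215). The call of EFNB3 was lost without parental normoxia replicate 2 or 3 or parental hypoxia replicate 1 (adjusted p up to 0.0859). EFNA1, the main ligand of EPHA2, had a mean of 8.69 ± 1.01 CPM in normoxia and 12.02 ± 0.414 CPM in hypoxia (SD, n = 3), a log2 difference of 0.47 ± 0.23 (adjusted p = 0.125) that missed the threshold.

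Among receptors, the abundant plexin PLXNA1 read 119.8, 119 and 115 CPM in normoxia and 206, 196 and 211 CPM in hypoxia. Its hypoxic libraries all lay above the normoxic ones (log2 change 0.79 ± 0.10, adjusted p = 9.25e-07). PLXNB2 fell by a small amount (−0.37 ± 0.13, adjusted p = 0.0375). The call of PLXNB2 was lost without parental normoxia replicate 1 or 2 or parental hypoxia replicate 1 or 2 (adjusted p up to 0.156). EPHA3 and EPHB1, both under 1 CPM in either condition, rose by 2.74 ± 0.62 (adjusted p = 0.00146) and 1.41 ± 0.37 (adjusted p = 0.00457). The abundant Eph receptors did not pass the test: the log2 difference was 0.21 ± 0.22 (adjusted p = 0.51) for EPHA2, −0.25 ± 0.14 (adjusted p = 0.18) for EPHB4 and −0.13 ± 0.15 (adjusted p = 0.532) for EPHB2.

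**Figure D2:**
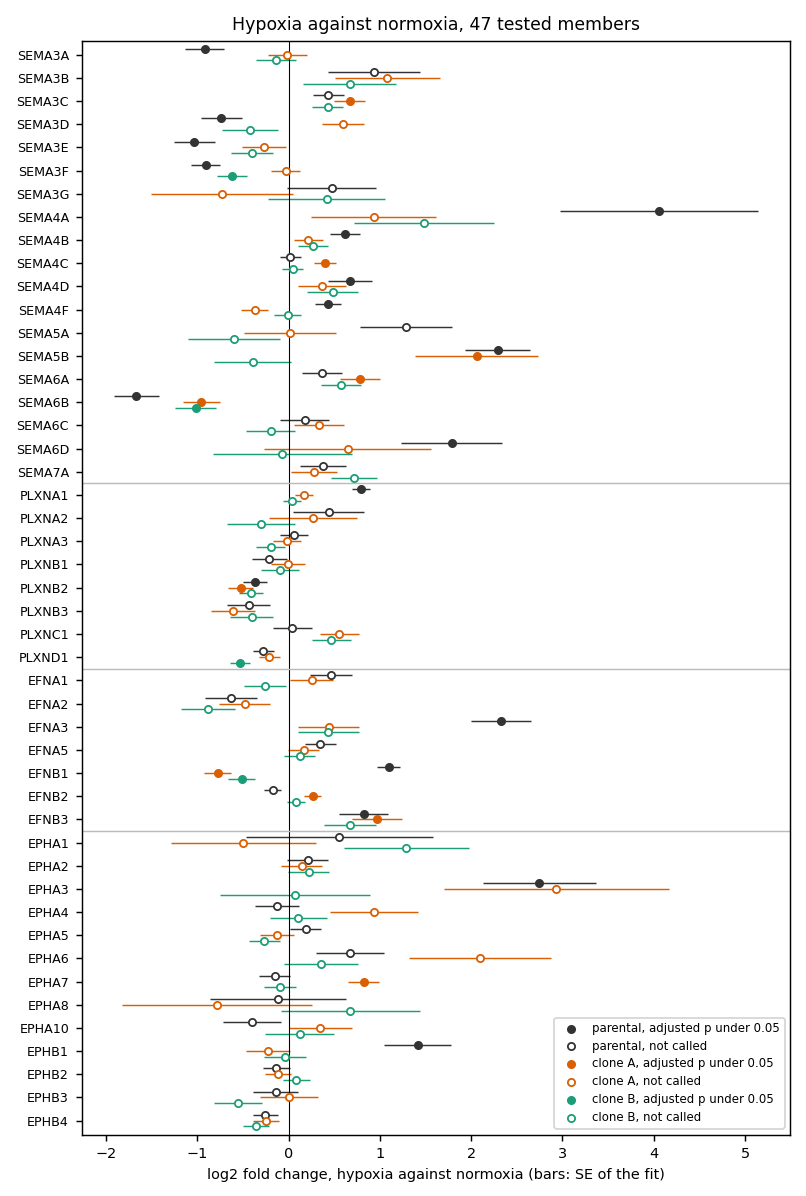
Log2 change from normoxia to hypoxia for each of the 47 tested members (rows) in parental cells, clone A and clone B, with bars for the SE of the fit and filled points for called changes. EFNA3 and EFNB1 stand at 2.33 and 1.09 in parental cells, against 0.44 and −0.78 in clone A and 0.44 and −0.51 in clone B.

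The clones were used to ask whether these responses were the same without ARNT. In clone A 7 members rose and 3 fell under hypoxia (21.3%, against 22.2% of all genes, 10.4% higher and 11.8% lower). In clone B none rose and 4 fell (8.51%, against 9.3% of all genes, 4.46% higher and 4.84% lower). These counts moved with single libraries: without clone A hypoxia replicate 1 there were 6 calls in clone A, and without clone B normoxia replicate 1 or 2 there were 2 in clone B. A fit of the compared libraries alone called 15 members in clone B in place of 4. For such fits, here and below, the share of all genes called was not counted. The difference between a clone's response and the parental response was tested directly. In clone A it passed for 8 members, 3 with a positive and 5 with a negative difference (17%, against 6.23% of all genes, 2.19% higher and 4.04% lower), and without parental hypoxia replicate 1 for 5. In clone B it passed for 4, all negative (8.51%, against 4.73% of all genes, 1.49% higher and 3.24% lower), and in a fit of the compared libraries alone for 12. Both tests use the same 6 parental libraries, so the clones' values below are given side by side and are not independent of each other.

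EFNA3, EFNB1 and PLXNA1 passed the test of the difference in either clone. EFNA3 read 0.976, 0.770 and 0.678 CPM in normoxia and 1.42, 0.883 and 0.982 CPM in hypoxia in clone A. For clone B these values were 0.535, 0.918 and 0.574 CPM and 0.971, 0.981 and 0.800 CPM, and every hypoxic library of the clones lay below the parental hypoxic ones. Its response minus the parental one was −1.89 ± 0.47 (adjusted p = 0.0131) in clone A and −1.89 ± 0.47 (adjusted p = 0.0164) in clone B on the log2 scale. In clone B the call of EFNA3 was lost without parental normoxia replicate 1 or 2 or parental hypoxia replicate 1 or clone B normoxia replicate 2 (adjusted p up to 0.0851). EFNB1 turned around: it read 4.36, 4.36 and 3.67 CPM in normoxia and 2.58, 2.08 and 2.56 CPM in hypoxia in clone A, a change of −0.78 ± 0.15 (adjusted p = 0.000808). In clone B it read 3.21, 3.78 and 3.50 CPM in normoxia and 2.88, 2.26 and 2.21 CPM in hypoxia, a change of −0.51 ± 0.15 (adjusted p = 0.0313). The call of EFNB1 was lost without clone B normoxia replicate 1, 2 or 3 or clone B hypoxia replicate 2 or 3 (adjusted p up to 0.152). The difference from the parental response was −1.87 ± 0.20 (adjusted p = 4.45e-07) for EFNB1 in clone A and −1.61 ± 0.20 (adjusted p = 5.3e-06) in clone B, and no library decided either call. PLXNA1 read 92.9, 87.5 and 78.3 CPM in normoxia and 96.5, 96.2 and 97.99 CPM in hypoxia in clone A. Its values for clone B were 104, 107 and 102 CPM, then 114, 103 and 105 CPM. Neither clone's own change of PLXNA1 passed the test (0.17 and 0.041), and the difference from parental was −0.62 ± 0.14 (adjusted p = 0.00526) and −0.75 ± 0.14 (adjusted p = 0.00101).

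These 3 genes are the members whose promoters are shown, because their hypoxia response differed from the parental one in either clone. HIFs with their ARNT partner are known to bind a short core written ACGTG or GCGTG, so the windows from 250 bases before to 50 bases after the RefSeq start (GRCh38.p14) were searched for ACGTG and GCGTG on both strands. Capitals mark the matches, each window is printed 5′ to 3′ on the strand of the gene (plus for all 3), and CACGC is GCGTG read on the other strand. The windows are chr1:155078587-155078886 for EFNA3, chrX:68828771-68829070 for EFNB1 and chr3:126982865-126983164 for PLXNA1, and each covers the RefSeq gene start with its flank and first transcribed bases.
EFNA3: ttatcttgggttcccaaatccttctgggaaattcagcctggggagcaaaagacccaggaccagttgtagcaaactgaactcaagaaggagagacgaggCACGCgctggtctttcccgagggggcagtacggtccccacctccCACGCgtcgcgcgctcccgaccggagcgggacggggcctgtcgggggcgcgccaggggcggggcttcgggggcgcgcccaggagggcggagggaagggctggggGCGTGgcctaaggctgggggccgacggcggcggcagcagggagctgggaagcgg
EFNB1: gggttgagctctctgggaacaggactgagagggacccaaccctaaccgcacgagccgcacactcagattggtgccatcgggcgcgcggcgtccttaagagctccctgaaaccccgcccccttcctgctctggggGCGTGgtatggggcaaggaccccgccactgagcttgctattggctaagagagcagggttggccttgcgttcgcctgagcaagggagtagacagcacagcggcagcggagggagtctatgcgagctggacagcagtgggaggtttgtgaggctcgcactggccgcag
PLXNA1: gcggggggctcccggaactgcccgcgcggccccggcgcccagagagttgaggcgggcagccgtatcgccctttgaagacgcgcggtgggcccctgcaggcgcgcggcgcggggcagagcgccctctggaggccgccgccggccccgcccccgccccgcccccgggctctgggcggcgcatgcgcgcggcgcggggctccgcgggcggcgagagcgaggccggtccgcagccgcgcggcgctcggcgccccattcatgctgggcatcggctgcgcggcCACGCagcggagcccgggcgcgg
EFNA3 has 3 matches, which begin 152, 108 and 4 bases before the start. EFNB1 has 1 match, which begins 116 bases before the start, and PLXNA1 has 1 match, which begins 27 bases after it. The start RefSeq gives for PLXNA1 lies upstream of the one in the annotation used for exon lengths, where the gene begins at base 126988594. Such a match is common: at least 1 was found in 48.4% of all 35116 windows of this length and in 52.4% of 27305 genes, against 29 of the 45 members with a window (64.4%). Counted by window, 37 of the 72 windows of members held a match, because some members have several windows. A match is a description of letters and does not show that a factor was bound. EFNB3, EPHA10, SEMA3A, SEMA6A and SEMA6B had no window in the table.

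Other differences were seen in 1 clone each, and whether the clones differed from each other in them was not tested. SEMA5B kept a rise in clone A by the fit (2.06 ± 0.67, adjusted p = 0.0289), but its hypoxic libraries read 0.837, 0.189 and 0.0595 CPM. The call of SEMA5B was lost without clone A normoxia replicate 1 or 3 or clone A hypoxia replicate 1 (adjusted p up to 0.645). In clone B SEMA5B read 0.760, 0.702 and 0.765 CPM in normoxia and 0.471, 0.387 and 0.827 CPM in hypoxia, and its response minus the parental one was −2.68 ± 0.55 (adjusted p = 0.00352). EPHA7, an EphA receptor kinase, rose in clone A from 44.8, 46.1 and 45.9 to 85.8, 77.3 and 78.6 CPM, against 25.7, 18.9 and 27.4 CPM in normoxia and 22.7, 21.4 and 20.8 CPM in hypoxia in parental cells. Its response differed from the parental one by 0.97 ± 0.24 (adjusted p = 0.0131). SEMA3D, which fell in parental cells, read 3.90, 3.08 and 3.36 CPM in normoxia and 6.18, 4.79 and 4.67 CPM in hypoxia in clone A (difference of responses 1.33 ± 0.32, adjusted p = 0.0111). The remaining differences in clone A were −1.64 for EPHB1, 0.87 for SEMA3F and −0.80 for SEMA4F, and each of these calls was lost without at least 1 library. The call of EPHB1 was lost without parental normoxia replicate 1 or 2 or parental hypoxia replicate 1 or clone A normoxia replicate 1 or clone A hypoxia replicate 3 (adjusted p up to 0.0928). The call of SEMA3F was lost without parental hypoxia replicate 1 or clone A hypoxia replicate 1 (adjusted p up to 0.0563). The call of SEMA4F was lost without parental normoxia replicate 3 or parental hypoxia replicate 1 or clone A normoxia replicate 2 or clone A hypoxia replicate 3 (adjusted p up to 0.0612).

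SEMA6B fell under hypoxia in every genotype. It read 15.8, 17.5 and 14.3 CPM in normoxia and 7.12, 9.15 and 8.30 CPM in hypoxia in clone A, a log2 change of −0.95 ± 0.20 (adjusted p = 0.0017). In clone B the values were 4.84, 4.81 and 4.62 CPM in normoxia and 1.68, 2.71 and 2.65 CPM in hypoxia, a log2 change of −1.02 ± 0.22 (adjusted p = 0.00509). The difference of its response from the parental one missed the threshold, at 0.71 ± 0.32 (adjusted p = 0.205) for clone A and 0.65 ± 0.33 (adjusted p = 0.34) for clone B, with intervals of 0.046 to 1.38 and −0.047 to 1.34. SEMA3C rose in clone A (0.67 ± 0.17, adjusted p = 0.0062), with 0.44 ± 0.17 (adjusted p = 0.0537) in parental cells and 0.43 ± 0.17 (adjusted p = 0.111) in clone B. PLXND1 fell in clone B (−0.53 ± 0.11, adjusted p = 0.00374), with −0.27 ± 0.11 (adjusted p = 0.0639) in parental cells and −0.21 ± 0.11 (adjusted p = 0.185) in clone A. For SEMA3C and PLXND1 the differences between genotypes were 0.23 ± 0.24 (adjusted p = 0.664) and −0.26 ± 0.16 (adjusted p = 0.459), and neither passed.

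**Figure D3:**
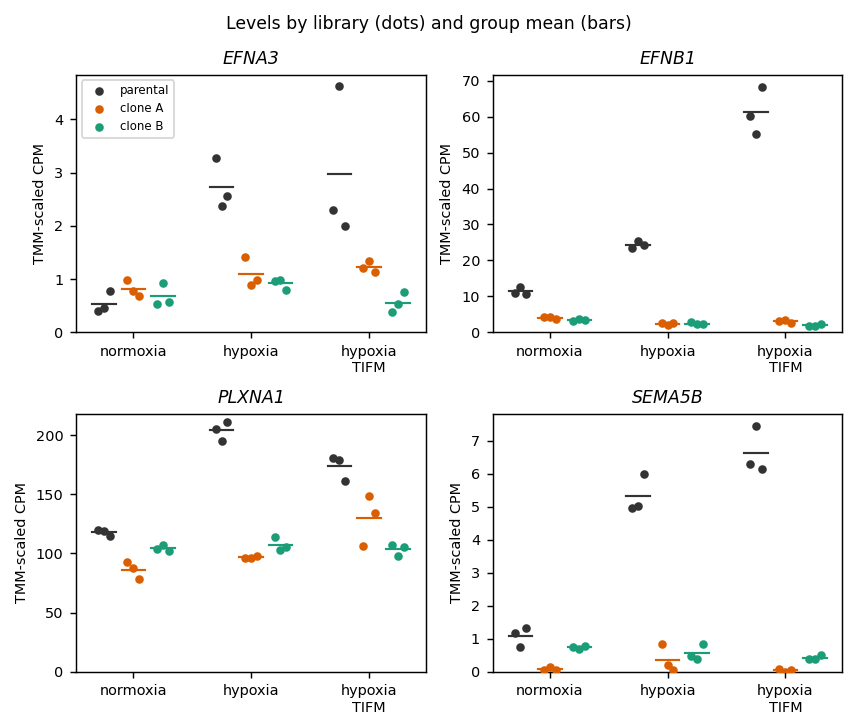
TMM-scaled CPM of EFNA3, EFNB1, PLXNA1 and SEMA5B (1 panel each) in normoxia, hypoxia and hypoxia in TIFM, with 1 dot per library, a bar at the mean of 3 and colors for parental cells, clone A and clone B. In parental cells all 3 hypoxic dots lie above all 3 normoxic dots in each panel, and in hypoxia they lie above every dot of the clones.

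The clones also differed from parental cells before any hypoxia, mostly towards lower levels. In clone A in normoxia 19 of 47 tested members were lower and 6 higher (53.2%, against 31.6% of all genes, 15.9% higher and 15.8% lower). In clone B 17 were lower and 2 higher (40.4%, against 26.5% of all genes, 13.2% higher and 13.3% lower). Over all genes the calls thus split about evenly in direction. The median log2 difference over the members was −0.45 in clone A and −0.50 in clone B, against 0.036 and 0.008 over all genes. As in the tests of hypoxia, the clones were compared with the same 3 parental libraries. By role, 5 of 7 class 3 semaphorins were lower in each clone and none was higher, and of the 5 tested class 4 genes 3 were lower and 1, SEMA4A, higher in clone A and 4 lower in clone B. In clone A, the call of SEMA4A was lost without parental normoxia replicate 1 or 2 or clone A normoxia replicate 2 (adjusted p up to 0.109). The receptors were split: EPHB1 and EPHB2 were higher and EPHB4 lower in each clone, and of 9 EphA genes 4 were lower and 1 higher in clone A and 3 were lower in clone B.

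EPHB2, an EphB receptor kinase, read 53.8, 61.02 and 45.1 CPM in parental normoxia, 204, 198 and 186 CPM in clone A and 247, 252 and 232 CPM in clone B. Every clone library lay above every parental one, with differences of 1.88 ± 0.15 (adjusted p = 1.85e-10) and 2.19 ± 0.15 (adjusted p = 1.38e-11). EPHB1 read 0.217, 0.337 and 0.432 CPM in parental cells, 6.05, 5.13 and 4.66 in clone A and 6.53, 7.72 and 7.57 in clone B, differences of 3.99 ± 0.32 (adjusted p = 2.26e-10) and 4.45 ± 0.32 (adjusted p = 2.77e-11). EPHB4 was lower in each clone (−0.86 ± 0.14, adjusted p = 3.02e-05, and −0.88 ± 0.14, adjusted p = 2.44e-05). EFNB1, a ligand of EPHB1 and EPHB2, was lower as well, at 11.03, 12.5 and 10.7 CPM in parental cells, 4.36, 4.36 and 3.67 in clone A and 3.21, 3.78 and 3.50 in clone B (−1.47 ± 0.14, adjusted p = 4.64e-09, and −1.71 ± 0.14, adjusted p = 3.95e-10). In normoxia, then, the parental line had more EFNB1 and EPHB4 transcript and the clones more EPHB1 and EPHB2. EPHB3 read 1.86, 2.05 and 2.13 CPM in parental cells against 0.650, 0.385 and 0.311 in clone A (−2.17 ± 0.28, adjusted p = 1.19e-06), and 1.72, 1.48 and 1.26 in clone B, where the difference was −0.44 ± 0.25 (adjusted p = 0.221). EFNB2, the ligand of EPHB4, was lower in clone B, at 10.3, 10.3 and 9.86 CPM against 22.99, 24.01 and 22.3 in parental cells (−1.18 ± 0.10, adjusted p = 4.06e-10), and read 20.8, 22.8 and 23.7 CPM in clone A (−0.041 ± 0.10, adjusted p = 0.79).

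EPHA4, a receptor that binds ephrins of the A and B types, had the largest difference in clone A: it read 4.28, 3.99 and 4.48 CPM in parental normoxia and 0.130, 0.0642 and 0.169 CPM in clone A. Clone B lay between them, at 0.648, 0.486 and 0.683 CPM, and the differences from parental were −5.07 ± 0.36 (adjusted p = 1.81e-11) and −2.80 ± 0.28 (adjusted p = 1.44e-08). EPHA6 read 0.898, 0.759 and 1.64 CPM in parental cells and 0, 0.0321 and 0.0847 CPM in clone A (−4.62 ± 0.61, adjusted p = 1.35e-06), where the libraries held 0, 1 and 3 counts. In clone B, EPHA6 read 0.422, 0.567 and 1.04 CPM, a difference of −0.69 ± 0.40 (adjusted p = 0.226). EPHA7 differed in opposite directions, 0.93 ± 0.17 (adjusted p = 0.000135) in clone A and −0.84 ± 0.17 (adjusted p = 0.00054) in clone B. EPHA10, a receptor whose kinase domain is thought to be inactive, was lower in clone B, at 0.507, 0.864 and 0.410 CPM against 2.01, 2.59 and 1.30 (−1.72 ± 0.35, adjusted p = 0.000403). In clone A its difference was −1.18 ± 0.34 (adjusted p = 0.00841). The call of EPHA10 was lost without parental normoxia replicate 2 (adjusted p = 0.0612). EPHA5 was lower in clone A (−1.48 ± 0.18, adjusted p = 3.83e-07), with −0.36 ± 0.17 (adjusted p = 0.13) in clone B.

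Of the secreted semaphorins, SEMA3F read 85.01, 89.02 and 75.4 CPM in parental normoxia, 21.3, 20.9 and 21.2 CPM in clone A and 25.1, 25.4 and 23.5 CPM in clone B. The clones did not overlap with the parental libraries, and the differences were −1.98 ± 0.16 (adjusted p = 3.84e-10) and −1.75 ± 0.16 (adjusted p = 3.37e-09). SEMA3D read 12.4, 8.24 and 13.2 CPM in parental cells against 3.90, 3.08 and 3.36 in clone A and 1.27, 0.918 and 0.683 in clone B (−1.71 ± 0.23, adjusted p = 2.03e-06, and −3.56 ± 0.26, adjusted p = 4.82e-11). SEMA3A read 37.1, 34.8 and 43.99 CPM in parental cells, 16.5, 14.2 and 14.7 in clone A and 7.46, 8.23 and 8.39 in clone B (−1.35 ± 0.21, adjusted p = 1.68e-05, and −2.27 ± 0.22, adjusted p = 8.43e-09). SEMA3A, SEMA3C, SEMA3D and SEMA3E lie on the same arm of chromosome 7 (GRCh38) and all run on the minus strand. In order along it they are SEMA3C (80742538 to 80922359), SEMA3E (83363238 to 83649113), SEMA3A (83955777 to 84492724) and SEMA3D (84995553 to 85186855), with 306.7 kb between SEMA3E and SEMA3A and 502.8 kb between SEMA3A and SEMA3D. In that order the log2 differences from parental were −0.70, −1.45, −1.35 and −1.71 in clone A and −0.9999, −0.86, −2.27 and −3.56 in clone B, and each of the 8 passed the test. SEMA3F, on chromosome 3 (50155045 to 50189075), was lower too, while SEMA3B, which begins 78.48 kb after its end, stayed under 1 CPM and passed no test.

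Among membrane semaphorins, SEMA5B read 1.18, 0.759 and 1.33 CPM in parental normoxia and 0.0650, 0.128 and 0.0565 CPM in clone A (−3.66 ± 0.57, adjusted p = 1.54e-05), against 0.760, 0.702 and 0.765 CPM in clone B (−0.54 ± 0.40, adjusted p = 0.358). SEMA6B was higher in clone A, at 15.8, 17.5 and 14.3 CPM against 3.35, 3.51 and 2.69 in parental cells (2.32 ± 0.22, adjusted p = 3.91e-09), with 4.84, 4.81 and 4.62 CPM in clone B (0.58 ± 0.22, adjusted p = 0.0514). SEMA4B was lower in each clone, with differences of −0.71 ± 0.16 (adjusted p = 0.00137) for clone A and −1.17 ± 0.17 (adjusted p = 4.23e-06) for clone B. So was SEMA4D, with −0.94 ± 0.26 (adjusted p = 0.00654) for clone A and −1.54 ± 0.27 (adjusted p = 7.61e-05) for clone B. Of the 8 tested plexins, 2 were lower in each clone, PLXNA1 (−0.45 ± 0.10, adjusted p = 0.000712) and PLXNB2 (−0.39 ± 0.13, adjusted p = 0.025) in clone A and PLXNB1 (−1.49 ± 0.20, adjusted p = 1.49e-06) and PLXNB2 (−0.55 ± 0.13, adjusted p = 0.0024) in clone B. For PLXNB2 in clone A, the call of PLXNB2 was lost without parental normoxia replicate 2 or clone A normoxia replicate 2 or 3 (adjusted p up to 0.117).

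**Figure D4:**
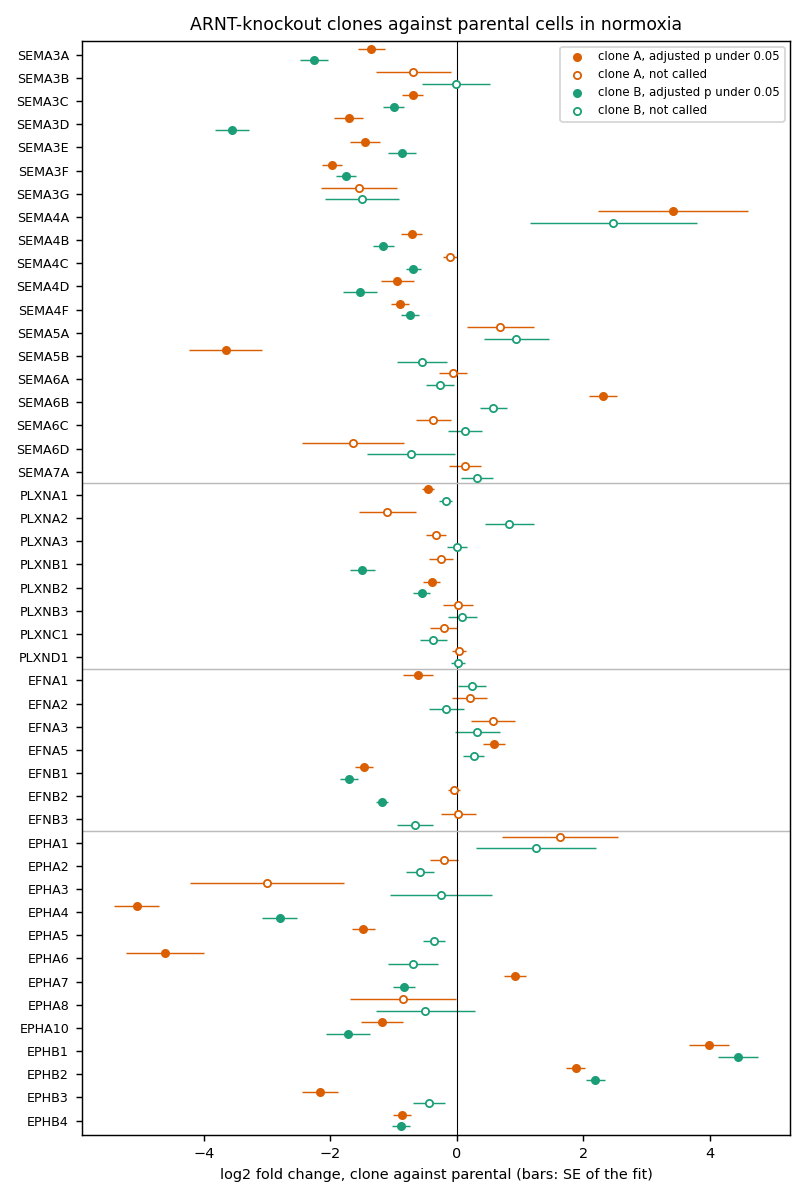
Log2 difference of clone A and of clone B from parental cells in normoxia for each of the 47 tested members (rows), with bars for the SE of the fit and filled points for called differences. Most points lie below 0, while EPHB1 (3.99 and 4.45) and EPHB2 (1.88 and 2.19) lie above it in either clone.

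Under hypoxia most of the members called were lower in the clones. In regular medium 22 members were lower and 5 higher in clone A (57.4%, against 41.4% of all genes, 20.5% higher and 20.9% lower). The counts for clone B were 27 lower and 5 higher (68.1%, against 35.9% of all genes, 16.9% higher and 19% lower). In TIFM 30 were lower and 3 higher in clone A (70.2%, against 61.7% of all genes, 30.9% higher and 30.7% lower). There clone B had 24 lower and 3 higher (57.4%, against 47.5% of all genes, 22.1% higher and 25.4% lower). The calls over all genes were split about evenly. Of 13 comparisons of 2 groups, only clone B against parental cells in TIFM had every library correlating best with its own replicate number. No label states a pairing, and whether these libraries were paired is not known. With the number as a block 26 members in place of 27 were called there: EFNB2 (−0.24 ± 0.10) was lost (adjusted p = 0.0527).

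EFNB1 stood far apart: in hypoxia its differences from parental were −3.34 ± 0.15 (adjusted p = 1.81e-15) in clone A and −3.32 ± 0.15 (adjusted p = 1.92e-15) in clone B. In TIFM it read 60.2, 55.02 and 68.4 CPM in parental cells, 3.18, 3.58 and 2.67 CPM in clone A and 1.78, 1.82 and 2.34 CPM in clone B (−4.28 ± 0.15, adjusted p = 2.38e-17, and −4.95 ± 0.16, adjusted p = 7.51e-18). EFNA3 in TIFM read 2.31, 4.63 and 2.001 CPM in parental cells against 1.204, 1.33 and 1.14 in clone A and 0.381, 0.530 and 0.755 in clone B (−1.28 ± 0.31, adjusted p = 0.000971, and −2.43 ± 0.34, adjusted p = 1.64e-06). In regular medium the hypoxic differences of EFNA3 were −1.32 ± 0.30 (adjusted p = 0.00108) and −1.57 ± 0.31 (adjusted p = 0.000223), so that EFNB1 and EFNA3 were lower in the clones in either medium. SEMA5B in TIFM read 6.29, 7.44 and 6.15 CPM in parental cells, 0.0669, 0 and 0.0494 CPM in clone A and 0.381, 0.398 and 0.491 CPM in clone B, so that the parental libraries lay above every clone library. SEMA4D, at 5.99, 5.55 and 6.78 CPM in parental TIFM, read 0.803, 0.999 and 2.32 CPM in clone A and 1.11, 1.52 and 2.38 CPM in clone B (−2.20 ± 0.28, adjusted p = 2.15e-07, and −1.88 ± 0.27, adjusted p = 2.4e-06). SEMA4B, with a parental mean of 839 ± 147 CPM in TIFM (SD, n = 3), differed by −0.94 ± 0.16 (adjusted p = 2.28e-05) and −1.95 ± 0.17 (adjusted p = 6.38e-10). EPHB2 was among the members that were higher in the clones, and in TIFM exceeded its level in parental cells by 2.46 ± 0.15 (adjusted p = 6.59e-13) in clone A and 1.43 ± 0.15 (adjusted p = 1.33e-08) in clone B.

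Set directly against each other in normoxia, the clones differed in 16 members, 8 higher and 8 lower in clone B than in clone A. This is 34%, against 21.5% of all genes, 11.7% higher and 9.83% lower. A fit of the compared libraries alone called 27, and the share of all genes called in it was not counted. EPHA7 read 44.8, 46.1 and 45.9 CPM in clone A and 13.7, 12.5 and 14.02 CPM in clone B, a difference of −1.77 ± 0.18 (adjusted p = 2.65e-08). SEMA6B (−1.74 ± 0.21, adjusted p = 6.47e-07), SEMA3D (−1.85 ± 0.26, adjusted p = 8.05e-06) and PLXNB1 (−1.24 ± 0.20, adjusted p = 3.48e-05) were likewise lower in clone B. PLXNB1, the receptor of SEMA4D, read 6.76, 6.70 and 5.68 CPM in clone A and 3.63, 2.13 and 2.32 CPM in clone B. EFNB2, given above by library, was also lower in clone B (−1.14 ± 0.10, adjusted p = 1.67e-09). Higher in clone B were EPHB3 (1.73 ± 0.29, adjusted p = 6.01e-05) and EPHA5, at 6.70, 4.67 and 5.79 CPM against 2.67, 2.47 and 2.74 (1.12 ± 0.18, adjusted p = 4.24e-05). For each of these 7 genes the libraries of the 2 clones did not overlap. They were named for their called differences between the same libraries, so this adds no separate support, and the share over all genes was not counted.

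The last question was how the medium acted under hypoxia. From regular medium to TIFM 7 members rose and 12 fell in parental cells (40.4%, against 42.2% of all genes, 21.8% higher and 20.4% lower). Clone A had 7 rises and 15 falls (46.8%, against 67.2% of all genes, 33% higher and 34.2% lower). Clone B had 4 rises and 8 falls (25.5%, against 53.7% of all genes, 25.9% higher and 27.9% lower). The members were thus called no more often than genes in general in any genotype. Of the 7 class 3 semaphorins 4 fell in parental cells and 5 in clone A, and 1 fell and 1 rose in clone B.

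EPHA7 fell in every genotype: it read 22.7, 21.4 and 20.8 CPM in regular medium and 5.57, 3.84 and 6.93 CPM in TIFM in parental cells, a change of −1.99 ± 0.19 (adjusted p = 7.03e-09). In clone A it went from 85.8, 77.3 and 78.6 to 3.51, 3.33 and 2.81 CPM (−4.64 ± 0.21, adjusted p = 1.62e-15), and in clone B from 10.1, 14.5 and 12.99 to 2.48, 2.92 and 1.51 CPM (−2.43 ± 0.20, adjusted p = 3.95e-10). The clone A change minus the parental one was −2.65 ± 0.27 (adjusted p = 5.78e-08): clone A started above parental cells in regular medium and ended below them in TIFM. SEMA3F also fell in all 3: from 41.9, 44.5 and 46.8 to 18.8, 22.6 and 14.7 CPM in parental cells (−1.25 ± 0.16, adjusted p = 1.19e-06). Clone A went from 25.2, 18.2 and 18.7 to 1.37, 2.42 and 2.42 CPM (−3.35 ± 0.20, adjusted p = 2.1e-13) and clone B from 12.95, 16.9 and 18.4 to 3.91, 4.81 and 4.68 CPM (−1.85 ± 0.18, adjusted p = 3.97e-09). None of these 6 groups overlapped with its counterpart in the other medium. EPHA7 and SEMA3F were named for called changes between the same libraries, so this adds no separate support. The share over all genes was not counted. SEMA3D fell in parental cells from 6.78, 6.18 and 7.34 to 1.86, 1.82 and 2.78 CPM (−1.66 ± 0.24, adjusted p = 6.12e-06) and in clone A from 6.18, 4.79 and 4.67 to 0.301, 0.167 and 0.543 CPM (−3.98 ± 0.32, adjusted p = 7.5e-11). SEMA3C fell in the same genotypes, from 582, 593 and 566 to 366, 237 and 359 CPM in parental cells and from 435, 408 and 419 to 156, 87.7 and 87.01 CPM in clone A. SEMA3A went the other way in clone B, from 6.33, 8.42 and 7.17 to 23.4, 19.8 and 15.6 CPM (1.42 ± 0.22, adjusted p = 6.32e-06), and this differed from the parental response by 1.49 ± 0.30 (adjusted p = 0.00246).

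EPHB2 rose in every genotype: in TIFM it read 138, 162 and 136 CPM in parental cells, 609, 852 and 937 CPM in clone A and 331, 395 and 451 CPM in clone B. The changes from regular medium were 1.58 ± 0.15 (adjusted p = 8.3e-09), 2.14 ± 0.15 (adjusted p = 5.11e-12) and 0.60 ± 0.14 (adjusted p = 0.0011), and in clone B the rise was smaller than in parental cells (difference −0.98 ± 0.20, adjusted p = 0.0031). EPHA8 is the nearest member on chromosome 1, ending 107.2 kb before EPHB2 begins, and it rose too, from a low level: it read 0.226, 0.0754 and 0.169 CPM in regular medium and 0.958, 0.712 and 1.000 CPM in TIFM in parental cells. In the same order of media, EPHA8 read 0.0966, 0 and 0.0595 CPM, then 0.334, 1.92 and 2.62 CPM, in clone A, and 0.235, 0.178 and 0.166 CPM, then 0.540, 1.23 and 1.09 CPM, in clone B. Its changes were 2.48 ± 0.62 (adjusted p = 0.00231), 4.83 ± 0.74 (adjusted p = 2.89e-06) and 2.28 ± 0.61 (adjusted p = 0.0028). EPHA1 stayed at or under 0.387 CPM in regular medium, with its highest hypoxic values in clone B (0.324, 0.387 and 0.0552 CPM). In TIFM it read 0.599, 0.747 and 0.371 CPM in parental cells, 1.04, 0.750 and 1.38 in clone A and 1.02, 0.928 and 1.66 in clone B, and rose by the fit in all 3 (3.16, 3.44 and 2.23). EPHA5 fell in parental cells from 9.09, 8.35 and 7.70 to 4.70, 3.27 and 3.45 CPM (−1.13 ± 0.18, adjusted p = 1.35e-05), and EPHA6 from 1.88, 1.84 and 1.52 to 0.898, 0.605 and 1.04 CPM (−1.04 ± 0.39, adjusted p = 0.0321). In clone B EPHA5 fell too, from 4.53, 5.20 and 4.55 to 2.26, 3.18 and 3.74 CPM, and in clone A it was not called. The clone B call of EPHA5 was lost without clone B TIFM replicate 1 (adjusted p = 0.0591). The call of EPHA6 was lost without parental hypoxia replicate 1 or 2 or parental TIFM replicate 1 or 2 (adjusted p up to 0.122).

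Among ephrins, EFNA1 and EFNB1 rose in parental cells. EFNA1 read 12.4, 12.1 and 11.6 CPM in regular medium and 30.98, 37.2 and 32.2 CPM in TIFM (1.48 ± 0.23, adjusted p = 1.09e-05). In the clones it read 5.49, 7.54 and 15.4 CPM (clone A) and 6.54, 8.58 and 11.3 CPM (clone B) in TIFM, with changes of 0.47 ± 0.24 (adjusted p = 0.0844) and 0.033 ± 0.23 (adjusted p = 0.918). The difference from the parental response of EFNA1 was −1.01 ± 0.32 (adjusted p = 0.0155) in clone A and −1.44 ± 0.32 (adjusted p = 0.00501) in clone B. In clone A the call of EFNA1 was lost without clone A TIFM replicate 2 (adjusted p = 0.051). EFNB1 rose further in parental cells, from 23.5, 25.4 and 24.4 to 60.2, 55.02 and 68.4 CPM (1.32 ± 0.13, adjusted p = 1.34e-08), and its response differed by −0.94 ± 0.20 (adjusted p = 0.000753) in clone A and −1.64 ± 0.21 (adjusted p = 1.43e-05) in clone B. In clone A EFNB1 also rose, from 2.58, 2.08 and 2.56 to 3.18, 3.58 and 2.67 CPM. That call was lost without clone A hypoxia replicate 2 or clone A TIFM replicate 1 or 2 (adjusted p up to 0.149). It was also lost in a fit of the compared libraries alone (adjusted p = 0.26). In clone B EFNB1 was not called. EFNB2 fell in parental cells (−0.52 ± 0.10, adjusted p = 0.000114) and in clone A (−0.78 ± 0.10, adjusted p = 1.21e-07), and its response in clone B differed from the parental one by 0.69 ± 0.14 (adjusted p = 0.00218).

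The response to TIFM differed from the parental one for 19 members in clone A, 5 positive and 14 negative (40.4%, against 38.9% of all genes, 19.3% higher and 19.6% lower). For clone B there were 2 positive and 5 negative differences (14.9%, against 10.4% of all genes, 4.06% higher and 6.34% lower). In clone A the negative differences were led by SEMA5B (−3.34 ± 0.90, adjusted p = 0.0048), EPHA7, SEMA3D (−2.33 ± 0.42, adjusted p = 0.000118) and SEMA3F (−2.10 ± 0.25, adjusted p = 7.34e-07). That of SEMA5B did not pass when clone A hypoxia replicate 1 was left out (adjusted p = 0.089). SEMA4F (1.21 ± 0.21, adjusted p = 6.46e-05) and PLXNA1 (0.65 ± 0.14, adjusted p = 0.000536) were among the positive ones. SEMA6C, a ligand of plexins of the A type, fell in clone A from 2.77, 1.64 and 1.46 to 0.1003, 0.583 and 0.444 CPM (−2.43 ± 0.35, adjusted p = 9.86e-07) and in clone B from 2.09, 1.93 and 1.74 to 0.635, 0.862 and 0.982 CPM (−1.22 ± 0.30, adjusted p = 0.00123). In parental cells SEMA6C fell too, from 2.49, 2.09 and 2.25 to 1.26, 1.46 and 1.15 CPM. That parental call was lost without parental hypoxia replicate 1 or parental TIFM replicate 1 or 3 (adjusted p up to 0.0682). Of the plexins, PLXND1 fell in all 3 genotypes, with changes of −0.40 ± 0.11 (adjusted p = 0.00562) in parental cells, −1.12 ± 0.11 (adjusted p = 3.52e-09) in clone A and −0.95 ± 0.11 (adjusted p = 1.37e-07) in clone B. The wide spread of the clone A libraries in TIFM stands beside these values: the summed level of all members was 1675, 2250 and 2639 CPM in them, and a fit of the compared libraries alone called 14 members in place of 22.

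**Figure D5:**
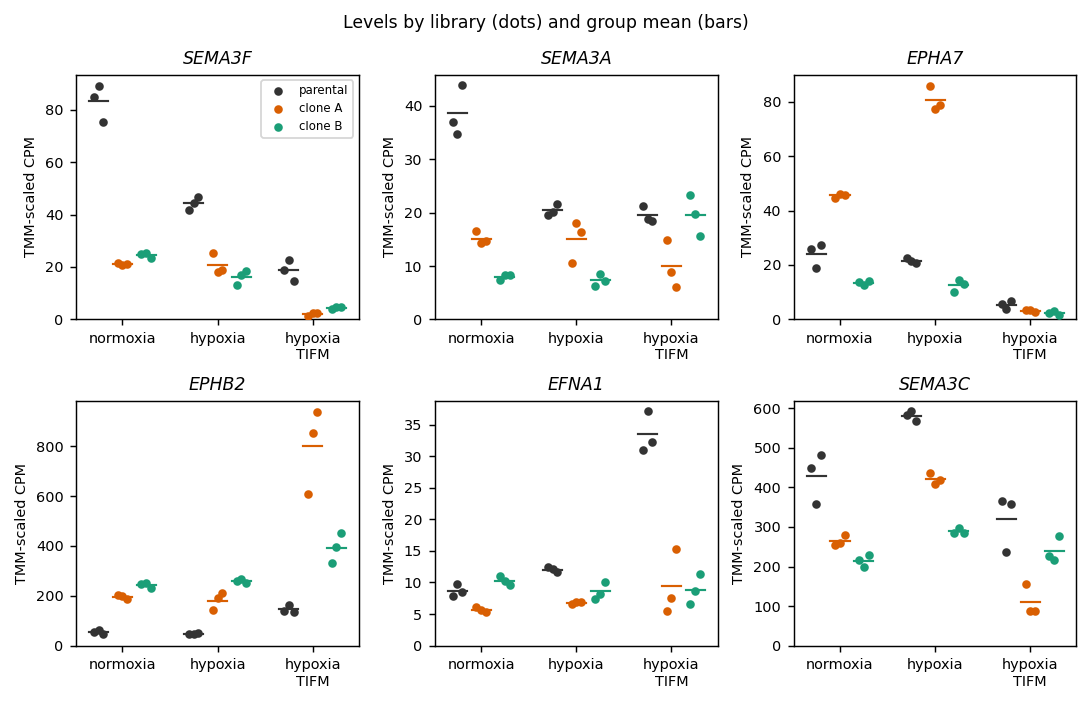
TMM-scaled CPM of SEMA3F, SEMA3A, EPHA7, EPHB2, EFNA1 and SEMA3C (1 panel each) in normoxia, hypoxia and hypoxia in TIFM, with 1 dot per library, a bar at the mean of 3 and colors for the 3 genotypes. In TIFM, EPHB2 is higher and EPHA7 and SEMA3F are lower than in regular medium under hypoxia in every genotype, and EFNA1 is highest in parental cells.

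Of the tested members, 3 were called in none of the 17 comparisons: SEMA3B (0.0847 to 0.938 CPM over the 27 libraries), SEMA5A (0.1003 to 1.07 CPM) and PLXNC1, the receptor of SEMA7A (2.11 to 5.59 CPM). SEMA6A, a transmembrane ligand of plexins of the A type, was called in 1 comparison and rose in clone A under hypoxia by 0.78 ± 0.22 (adjusted p = 0.0105), and the call of SEMA6A was lost without clone A normoxia replicate 1 (adjusted p = 0.0694). EFNA2 and PLXNB3 were also called once each, both lower in TIFM: EFNA2 in clone A by −0.91 ± 0.32 (adjusted p = 0.0143) and PLXNB3 in clone B by −0.59 ± 0.25 (adjusted p = 0.0498), and the call of PLXNB3 was lost without clone B hypoxia replicate 1 or 3 or clone B TIFM replicate 1 or 3 (adjusted p up to 0.221). SEMA7A, a membrane-anchored semaphorin, rose in TIFM in parental cells by 0.81 ± 0.25 (adjusted p = 0.0111), and the call of SEMA7A was lost without parental TIFM replicate 2 (adjusted p = 0.0828). SEMA4C was lower in clone B than in parental cells in all 3 conditions, by −0.69 ± 0.12 (adjusted p = 5.31e-05) in normoxia, −0.66 ± 0.12 (adjusted p = 6.09e-05) in hypoxia and −0.65 ± 0.12 (adjusted p = 5.66e-05) in TIFM. The Eph receptor EPHA2 read 421, 445 and 449 CPM in parental cells and 138, 151 and 203 CPM in clone B in TIFM, with no overlap (−1.42 ± 0.23, adjusted p = 1.43e-05). EFNA5 was higher in clone A than in parental cells in normoxia by 0.59 ± 0.17 (adjusted p = 0.00917). The plexin PLXNA2, at 0.0631 to 1.21 CPM over the 27 libraries, was higher in clone B than in clone A in normoxia (1.93 ± 0.43, adjusted p = 0.0016), so that the clones differed from each other in it. PLXNA3 was lower in clone A than in parental cells in hypoxia (−0.41 ± 0.16, adjusted p = 0.0366), and the call of PLXNA3 was lost without parental hypoxia replicate 1 or 3 or clone A hypoxia replicate 2 or 3 (adjusted p up to 0.176). The secreted SEMA3G, under 1 CPM in every library, was lower in clone A than in parental cells under hypoxia: the parental libraries read 0.452, 0.553 and 0.534 CPM and those of clone A 0.161, 0.0315 and 0.0298 CPM (−2.75 ± 0.63, adjusted p = 0.00098).

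Of the co-receptors and effectors of semaphorins and plexins, 36 of 37 listed genes were tested, and under hypoxia in parental cells 4 rose and 5 fell (median log2 change −0.0014), while 30.2% of all genes were called. The co-receptor NRP1 fell from 185 ± 6.59 to 106 ± 5.94 CPM (SD, n = 3; −0.81 ± 0.10, adjusted p = 8.66e-07), beside the fall of its ligand SEMA3A. Its response minus the parental one was 0.49 ± 0.14 (adjusted p = 0.0298) in clone A and 0.61 ± 0.14 (adjusted p = 0.00845) in clone B. DPYSL4 (1.52 ± 0.18, adjusted p = 6.96e-07) and DPYSL2 (1.15 ± 0.10, adjusted p = 5.01e-09), which belong to the collapsin response mediator proteins downstream of SEMA3A, rose, and MICAL2, of a family of actin-oxidising enzymes that act downstream of plexins, fell (−1.30 ± 0.12, adjusted p = 8.64e-09). The hypoxia responses of DPYSL4, DPYSL2 and MICAL2 differed from the parental ones by −1.34, −0.83 and 1.03 in clone A and by −1.54, −0.85 and 1.09 in clone B (adjusted p up to 0.00263). NRP2, the co-receptor of SEMA3F, was higher in the clones in normoxia: parental cells had 10.5 ± 0.502 CPM, clone A 32.4 ± 1.61 CPM and clone B 82.7 ± 1.93 CPM (SD, n = 3). The differences of NRP2 were 1.63 ± 0.22 (adjusted p = 2.17e-06) and 2.98 ± 0.23 (adjusted p = 1.18e-10), while SEMA3F itself was lower.

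Eph and ephrin effectors were tested for 23 of 27 listed genes: 1 rose and 3 fell under hypoxia in parental cells (median −0.016). In normoxia 4 were higher and 5 lower in clone A and 5 higher and 5 lower in clone B (medians −0.051 and −0.076). The shares called over all genes were 30.2% for hypoxia in parental cells, 31.6% for clone A and 26.5% for clone B. The largest difference in either clone was that of VAV3, a guanine nucleotide exchange factor that acts downstream of Eph receptors (−4.49 ± 0.73, adjusted p = 2.75e-05, and −4.26 ± 0.69, adjusted p = 3.05e-05), and ADAM10, a protease known to cleave ephrins, was lower too (−0.95 ± 0.16, adjusted p = 3.32e-05, and −1.01 ± 0.16, adjusted p = 1.47e-05). Among other guidance genes (netrins, SLITs and their receptors; 18 of 25 tested) 3 rose and 2 fell under hypoxia in parental cells, led by the netrin receptor UNC5B (1.56 ± 0.29, adjusted p = 0.000257) and the netrin NTN4 (0.95 ± 0.18, adjusted p = 0.000245). Over all genes 30.2% were called there. In normoxia 5 were higher and 7 lower in clone A (against 31.6% of all genes) and 6 higher and 5 lower in clone B (against 26.5% of all genes), and NTN4 (−3.47 and −1.99) and the SLIT receptor ROBO2 (−3.11 and −2.85) were lower in each.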

How the data were processed

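PolyA RNA of 27 libraries was read from 1 table of raw counts per gene deposited by the authors. Per the submitters' processing notes, reads were aligned with HISAT2 to GRCh38 and counted with featureCounts; versions, the strand setting and the annotation are not stated in these notes. All table columns were mapped to samples by their labels. GENCODE v29 named 21409 of the 21487 identifiers and a table of gene names 70 more, and 8 stayed without a symbol. One fit of all libraries was made with edgeR 4.0.16 (limma 3.58.1, R 4.3.3): filterByExpr by group (minimum count 10, minimum total 15) left 13943 genes, with TMM factors, 1 coefficient per group, robust quasi-likelihood F tests and Benjamini-Hochberg adjustment per contrast over all tested genes. Called means an adjusted p under 0.05, and the SE is the absolute log2 change divided by the square root of F. The biological coefficient of variation was 14.1%, and replicates differed beyond counting noise (chi-square per degree of freedom 4.606 to 219.5), so none was a repeated deposit. Counting intervals are exact, at 95%, and hold for counting error alone, because the reads have no molecular identifiers. The script was tested on simulated data.

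Members and lists were chosen with earlier results of these data known, and 1 gene of these families is not reported here. By the rule for named genes, library values are given for called members with an absolute log2 change of at least 1 and a group mean of at least 1 CPM, at most 8 per comparison, with up to 6 other values per comparison; genes outside the families were named if they were NRP1, NRP2 or among the 4 called with the largest change of their list. Values beyond that were chosen after they were seen. Alternatives were RLE factors, no filter, DESeq2 1.42.0, only the libraries compared, a replicate block and leaving out each library. For clone B against parental cells in TIFM, deviations of libraries with the same number correlated at 0.155 to 0.28. This was 1 of 13 comparisons examined, no label states a pairing, and whether these libraries were paired is not known.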

Additional observations from a re-analysis of the deposited data

Results flagged for a closer look

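A gene is listed here because its response in a knockout clone differed from the parental response by the test of the difference itself. For hypoxia in clone A, the log2 differences were negative for EFNA3 (−1.89), EFNB1 (−1.87), EPHB1 (−1.64), SEMA4F (−0.80) and PLXNA1 (−0.62) and positive for SEMA3D (1.33), EPHA7 (0.97) and SEMA3F (0.87) (edgeR, adjusted p 4.45e-07 to 0.022). For hypoxia in clone B, the differences were those of SEMA5B (−2.68), EFNA3 (−1.89), EFNB1 (−1.61) and PLXNA1 (−0.75) (edgeR, adjusted p 5.3e-06 to 0.0164). For TIFM under hypoxia in clone A, negative differences were those of SEMA5B (−3.34), EPHA7 (−2.65), SEMA3D (−2.33), SEMA3F (−2.10), SEMA6C (−1.61), SEMA3E (−1.35), EPHB1 (−1.09), SEMA3C (−1.07), EFNA1 (−1.01), SEMA4D (−0.94), EFNB1 (−0.94), PLXNB2 (−0.72), PLXND1 (−0.72) and EFNA5 (−0.61), and positive ones those of EPHA4 (1.52), EPHA5 (1.27), SEMA4F (1.21), PLXNA1 (0.65) and EPHB2 (0.57) (edgeR, adjusted p 5.78e-08 to 0.0478). In clone B the differences in the response to TIFM were negative for EFNB1 (−1.64), EFNA1 (−1.44), EPHB2 (−0.98), PLXNB2 (−0.75) and PLXND1 (−0.55) and positive for SEMA3A (1.49) and EFNB2 (0.69) (edgeR, adjusted p 1.43e-05 to 0.0252). In the response of clone A to TIFM, leaving out single libraries ended some of these calls: the call of EPHB1 was lost without parental hypoxia replicate 2 or 3 or parental TIFM replicate 1 or clone A hypoxia replicate 2 or clone A TIFM replicate 2 (adjusted p up to 0.372). The call of EPHB2 was lost without parental hypoxia replicate 3 or parental TIFM replicate 1 or 3 or clone A hypoxia replicate 1 or clone A TIFM replicate 2 or 3 (adjusted p up to 0.104), and the call of EPHA4 was lost without clone A TIFM replicate 2 (adjusted p = 0.0665). The call of SEMA4D held only without parental TIFM replicate 2 or clone A TIFM replicate 3 and was lost without each of the other 10 libraries (adjusted p up to 0.149). That of EFNA5 held only without parental hypoxia replicate 1, clone A hypoxia replicate 1 or clone A TIFM replicate 1 or 2 and was lost without each of the other 8 (adjusted p up to 0.144). Fits of only the libraries compared lost EPHB1, EPHB2, EFNA1, EFNA5, SEMA4D and SEMA6C in that test (adjusted p 0.0505 to 0.114), and EFNA5 and SEMA4D were also lost with RLE factors and with no filter on low counts. In the response of clone B to TIFM, the call of PLXND1 was lost without parental hypoxia replicate 2 or parental TIFM replicate 2 or clone B hypoxia replicate 3 or clone B TIFM replicate 1 (adjusted p up to 0.0896). The clones share the parental libraries in these tests, so their values are not independent. No group had the 4 libraries that a check for single outlying samples needs.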

How the results depend on the processing

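Of the 302 member calls over the 17 comparisons, none changed sign under any alternative, and 236 held when each library of their comparison was left out in turn, while 66 were lost at least once. DESeq2's size factors in edgeR (RLE) kept 293 of them, no filter on low counts 290, and DESeq2 295. Fits of only the libraries compared kept 269 of the 291 that could be set beside them. Such fits moved 4 counts by over 1.5 times: 15 members in place of 4 for hypoxia in clone B, 14 in place of 22 for TIFM in clone A, 27 in place of 16 for clone B against clone A in normoxia, and 12 in place of 4 for the difference of hypoxia responses in clone B. The cause was not tested, and the share of all genes called in these fits was not counted. Leaving out 1 library at a time gave these counts of members called: 13 to 15 for hypoxia in parental cells, 6 to 10 for hypoxia in clone A, 2 to 3 for hypoxia in clone B, 16 to 19 for TIFM in parental cells, 20 to 25 for TIFM in clone A, 10 to 13 for TIFM in clone B, 21 to 25 for clone A against parental in normoxia, 19 to 20 for clone B against parental in normoxia, 24 to 26 for clone A in hypoxia, 26 to 29 for clone B in hypoxia, 28 to 34 for clone A in TIFM, 25 to 29 for clone B in TIFM, 14 to 15 for clone B against clone A, 5 to 9 for the difference of hypoxia responses in clone A, 3 to 5 for that in clone B, 14 to 21 for the difference of TIFM responses in clone A and 6 to 10 for that in clone B.

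With the replicate number as a block, 299 of the 302 calls were kept, and the counts were 19, 11, 5, 19, 22, 11, 25, 21, 28, 32, 33, 26, 16, 8, 5, 19 and 7 in the order of that list. The calls lost with the block were EFNB2 under hypoxia in clone A (adjusted p = 0.0521), PLXNB3 in TIFM in clone B (0.054) and EFNB2 in clone B against parental cells in TIFM (0.0527). Deviations of same-numbered libraries from their group means correlated with a median of −0.0080 over 108 pairs (−0.0023 for different numbers). In 1 of the 13 comparisons of 2 groups every pair exceeded 0.1 and every library correlated best with its own number, namely clone B against parental cells in TIFM. No label states a pairing in any comparison, so whether this match reflects paired libraries is not known. Members under 1 CPM rest on few counts. Some of their differences passed the test, and a difference that missed the threshold may be absent or too small to detect at this depth.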

Other observations

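Neighbouring members did not always move together. EFNA3 and EFNA1 lie 39.92 kb apart on chromosome 1 in the same orientation. Under hypoxia in parental cells their log2 changes were 2.33 ± 0.33 (adjusted p = 6.91e-06) and 0.47 ± 0.23 (adjusted p = 0.125), and in TIFM they were 0.12 ± 0.29 (adjusted p = 0.758) and 1.48 ± 0.23 (adjusted p = 1.09e-05) (edgeR), so that each passed the test in the comparison that the other did not. EFNA4, 9.318 kb before EFNA3, had 1 count in all libraries. EPHA8 and EPHB2, 107.2 kb apart on the same chromosome, both rose in TIFM in all 3 genotypes, while in normoxia the clones differed from parental cells in EPHB2 (1.88 and 2.19) with values of −0.85 ± 0.84 (adjusted p = 0.483) and −0.50 ± 0.78 (adjusted p = 0.714) for EPHA8. PLXNB3 and PLXNA3, 678.9 kb apart on chromosome X, passed 1 and 2 of the 17 tests.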
